A study of Mus musculus with 1094 samples.

Results

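The 10 tubulin genes followed here are the alpha isotypes Tuba1a, Tuba1b and Tuba1c and the beta isotypes Tubb2a, Tubb2b, Tubb3, Tubb4a, Tubb4b, Tubb5 and Tubb6. They were taken by gene symbol from 23078 genes measured in 1094 single cells, by a rule that uses no measured value, with earlier results of these data known. The cells came from the dorsal cerebral cortex of C57Bl/6 mice labelled wild-type and female, and carry a GFP reporter transgene used for sorting. Hes5::GFP cells were labelled neural stem cells (NSC) at E10.5, E11.5, E13.5, E15.5, E17.5, E18.5, P0 and P1, 538 cells in all. Tbr2::GFP cells were labelled basal progenitors (BP) at E12.5, E14.5, E16.5, E18.5 and P0, 344 cells, or newborn neurons (NBN), 212 cells at E16.5 and E18.5 and after birth at P1 and P3. The ages labelled for P0, P1 and P3 are 1, 2 and 4 days. GFP is a stable protein that daughter cells can inherit, so each sort can hold cells that no longer transcribe the reporter's gene. All cells of 1 population at 1 stage are called a library here, which gives 8 NSC, 5 BP and 4 NBN libraries of 39 to 89 cells. Levels are TPM, a transcript abundance relative to all of the cell's transcripts, which are scaled by gene length and can therefore be compared between genes.

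Microtubules are polymers of a dimer of 1 alpha and 1 beta tubulin. Mammals make several isotypes of each from separate genes, which differ mostly in an acidic tail at the end of the protein, where tubulin is modified and where motors and associated proteins bind. Tuba1a is the main alpha isotype of developing neurons, Tubb3 is a widely used neuron marker, Tubb2a and Tubb2b are abundant in brain, Tubb5 and Tubb4b are made in many cell types, and Tubb4b is a component of cilia.

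The deposited levels depend on how far reads from the isotypes can be told apart, which was measured on the mouse build GRCm38 with GENCODE release M21. Over the whole coding sequence Tuba1a and Tuba1b were identical at 98.3% of bases and Tuba1a and Tuba1c at 97.1%. Of the runs of 31 bases in the longest transcripts, 21.4% were unique to Tuba1a among all GENCODE genes, 14.0% to Tuba1b and 36.1% to Tuba1c.

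Among the beta genes the close pair is Tubb2a and Tubb2b on chromosome 13, and the pair that the results turn on is Tubb3 and Tubb5. Their coding sequences are shown in the last bases before the stop codon, which encode the tail. Capitals mark bases of Tubb2a that differ from Tubb2b. Tubb2b is at chr13:34127474-34127548, minus strand, Tubb2a at chr13:34074471-34074545, minus strand, Tubb3 at chr8:123421605-123421679, plus strand, and Tubb5 at chr17:35834985-35835059, minus strand.
Tubb2b: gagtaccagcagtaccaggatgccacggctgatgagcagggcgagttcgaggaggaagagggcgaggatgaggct
Tubb2a: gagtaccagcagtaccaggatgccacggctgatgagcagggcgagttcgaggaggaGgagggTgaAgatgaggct
Tubb3: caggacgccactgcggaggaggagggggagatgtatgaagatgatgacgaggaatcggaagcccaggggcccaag
Tubb5: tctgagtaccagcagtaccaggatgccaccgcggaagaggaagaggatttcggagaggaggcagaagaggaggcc
Tubb2a and Tubb2b differed at 3 of these 75 bases and were identical at 96.5% of coding bases, while Tubb3 and Tubb5 were identical at 81.5%. Read in frame, the 3 differences leave the amino acids encoded by this stretch the same in Tubb2a and Tubb2b. Runs of 31 bases were unique for 96.8% of Tubb3, 96.0% of Tubb5, 98.1% of Tubb4a and 96.1% of Tubb6, for 43.6% of Tubb2a and 54.1% of Tubb2b, and for 29.6% of Tubb4b, which shared 54.5% with the pseudogene Tubb4b-ps1. The levels of Tuba1a, Tuba1b, Tuba1c, Tubb2a, Tubb2b and Tubb4b are therefore uncertain where reads were shared out between copies, and those of Tubb3, Tubb4a, Tubb5 and Tubb6 rest mostly on unique sequence.

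In the deposited values near copies often had close ratios. In 4 near-empty cells with 19 to 124 genes, Tuba1b to Tuba1a was 0.946 and Tuba1c to Tuba1a 0.837, and in 1 other, with 111 genes, the ratios were 0.236 and 0.208. In the 1054 cells with 1000 or more genes at 1 TPM and 100 TPM or more of Tuba1a, the medians were 0.213 and 0.222. The 5th percentile of Tuba1b to Tuba1a lay between 0.167 and 0.192 in the 16 libraries other than NSC E10.5, where it was 0.601, so few cells fell below that level. Tubb4b-ps1 followed Tubb4b at 0.211 to 0.291 of its level in every library.

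Cells of the libraries did not all match their labels. A cell is called neuron-profile here where its mean log2(TPM + 1) over 12 neuronal genes exceeds that over 15 radial glial genes, and radial glia-profile otherwise. By this measure 94.9% to 100% of BP cells and 92.3% to 95.5% of NBN cells at E16.5, E18.5 and P1 were neuron-profile, but only 5 of 39 NBN cells at P3. Among NSC libraries the share was 1.14% at E10.5, 43.1% at E11.5, 48.5% at E13.5, 91.9% at E15.5, 63.2% at E17.5, 15.2% at E18.5, 2.22% and 4.26% at the postnatal stages P0 and P1. Hes5 itself had means of 2.27 to 54.7 TPM in NSC and 0 to 0.428 TPM in BP and NBN, and Eomes, which encodes Tbr2, 117 to 364 TPM in BP and 0.344 to 208 TPM in NBN. Eomes had 25.2 to 373 TPM in NSC, which overlapped BP, and its mean at NSC E17.5 was above every BP library. At 10 TPM it was held by 35.6% to 66.7% of cells in BP libraries, 2.27% to 52.1% in NSC and 0% to 7.94% in NBN. The 208 TPM at NBN E18.5 was a mean over a library in which 2.86% of cells held 10 TPM. In NBN P3, 36 of 39 cells held 3 or more markers of another type at 10 TPM. All 7 microglial markers were at 1 TPM or more there, with a summed level of 7692 TPM against at most 32.7 TPM elsewhere, and all 5 meningeal markers, with 1771 TPM against at most 136 TPM. NSC E11.5 held 32 of 58 cells with erythroid markers. The main population means, contrasts and slopes are also given without NBN P3 or NSC E15.5 where these change them. A further 23 cells had fewer than 1000 genes, and all 10 isotypes were at 0 in 11 of these.

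Together the 10 genes made up 1.68% ± 0.715 of all TPM in NSC (SD, n = 8 libraries), 2.76% ± 0.5263 in BP (n = 5) and 2.57% ± 1.40 in NBN (n = 4). NSC libraries ran from 0.992% at P1 to 2.83% at E11.5, BP libraries from 2.14% to 3.31%, and NBN libraries from 0.658% at P3 to 4.03% at E18.5, so the populations overlapped. The alpha sum was 2.43 ± 0.062 times the beta sum in BP, with all 5 libraries between 2.33 and 2.50. The ratio spread more in NSC, at 2.08 ± 0.653, and in NBN, at 2.39 ± 0.567. Without NBN P3 the NBN total was 3.20% ± 0.725 and the ratio 2.61 ± 0.417 (n = 3), and without E15.5 the NSC values were 1.55% ± 0.670 and 1.98 ± 0.624 (n = 7). The lowest ratio, 0.773 at NSC E11.5, included 1 cell with 5 detected genes and 361240 TPM of Tubb3, and it was 1.25 in the cells with 1000 or more genes.

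Over the 17 libraries the order of mean levels was Tuba1a with 10169 ± 5350.2 TPM (SD), Tubb3 with 3015 ± 2553 TPM, Tubb5 with 2825 ± 839 TPM, Tuba1b with 2584 ± 848 TPM and Tuba1c with 2400.3 ± 1065 TPM. Tubb2a followed with 363 ± 217 TPM, Tubb2b with 333 ± 178 TPM, Tubb4a with 179.8 ± 105.1 TPM, Tubb4b with 166 ± 93.0 TPM and Tubb6 with 22.1 ± 49.7 TPM. Several neighbours in this order did not differ beyond their spread: Tubb3 was above Tubb5 in 9 of 17 libraries, Tubb5 above Tuba1b in 11, Tuba1b above Tuba1c in 10, Tubb2a above Tubb2b in 9 and Tubb4a above Tubb4b in 9. The steps from Tuba1a to Tubb3, from Tuba1c to Tubb2a and from Tubb2b to Tubb4a held in 16, 17 and 16 libraries. Tuba1a was the highest isotype in 15 libraries. Tubb5 took that place at NSC E10.5 and Tubb3 at NSC E11.5, where 1 cell with 5 detected genes set the Tubb3 mean. In cells with 1000 or more genes Tuba1a led at NSC E11.5 (8046 against 4661 TPM of Tubb3) and in 16 libraries, and Tubb5 (2836 ± 858 TPM) stood before Tubb3 (2707 ± 1711 TPM) in the order of means.

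**Figure D1:**
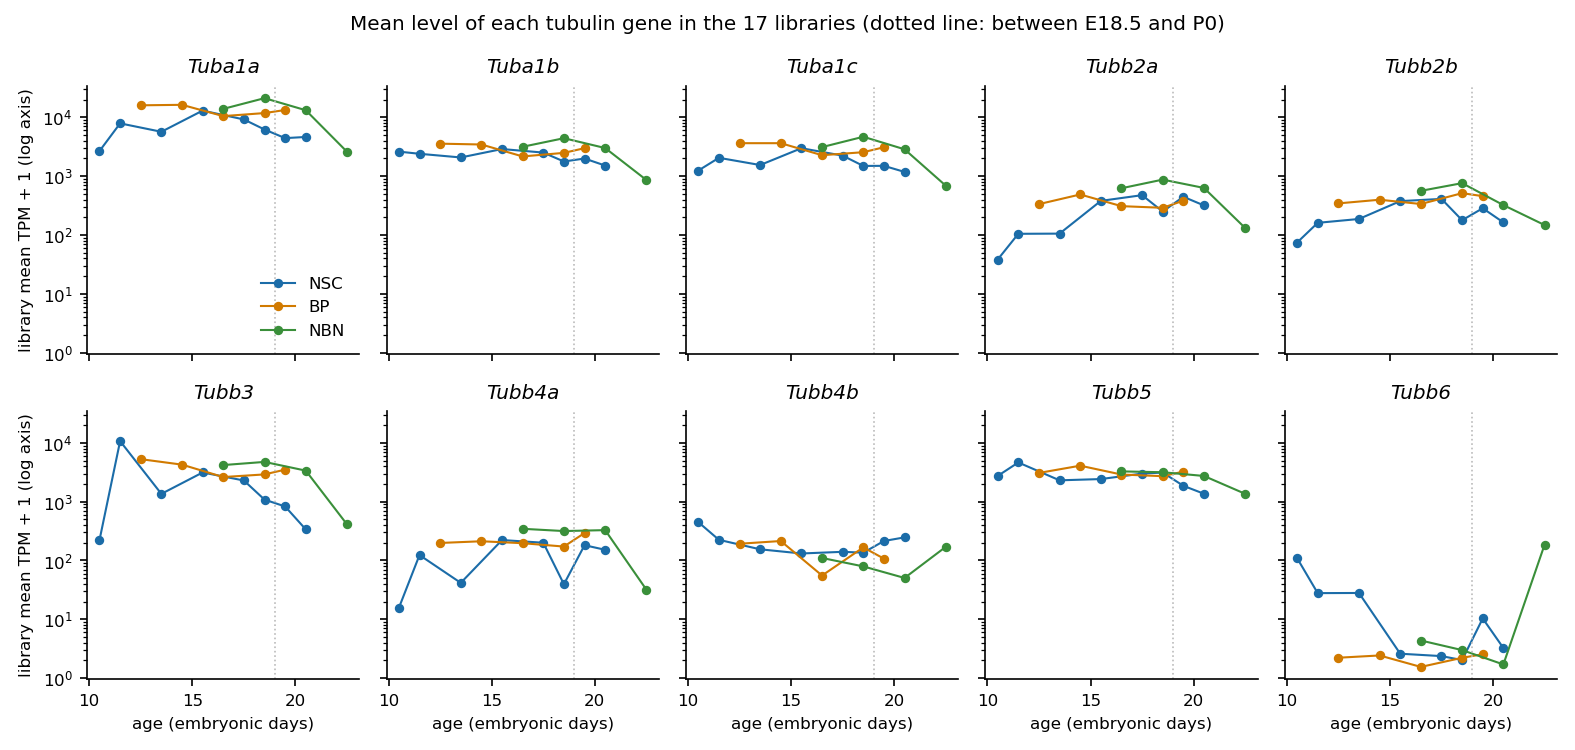
Mean TPM plus 1 of each isotype (log axis) against age in embryonic days, with 1 point per library and 1 colour per population; the dotted line lies between E18.5 and P0. Tuba1a is the highest gene in 15 of 17 libraries, and Tubb6 stays below 5 TPM in 12.

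Tuba1a, the alpha isotype of growing neurons, had library means of 2673 TPM (E10.5), 5953 TPM (median) and 13032 TPM (E15.5) in NSC. In BP it had 16036 TPM at E12.5 and 16347 TPM at E14.5, then 10506, 11836 and 13345 TPM at E16.5, E18.5 and P0. In NBN it had 13941 TPM at E16.5, 21216 at E18.5, 13231 at P1 and 2599.8 at P3. The BP and NBN libraries up to P1 lay above every NSC library except E15.5, the one with 91.9% neuron-profile cells, and NBN P3 lay below all NSC libraries. The gene was at 10 TPM or more in 88.8% to 100% of cells of every library, so the share of cells with it varied little.

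Tuba1b had 2224 ± 462 TPM in NSC, 2936 ± 607 TPM in BP and 2864 ± 1479 TPM in NBN, and Tuba1c had 1779.8 ± 610.2, 3042 ± 621 and 2839 ± 1643 TPM (SD, n = 8, 5 and 4 libraries). Without P3 the NBN means were 3532 ± 776 TPM for Tuba1b and 3556 ± 982 TPM for Tuba1c. As shares of the alpha sum the isotypes were nearly fixed in neuron-profile libraries. Over the 8 BP and NBN libraries other than NBN P3, Tuba1a took 68.6% to 70.3%, Tuba1b 14.49% to 15.8% and Tuba1c 15.0% to 16.0%. NSC E10.5 stood apart from all of these, with 40.9% Tuba1a, 40.0% Tuba1b and 19.0% Tuba1c. There Tuba1b was the leading alpha isotype in 46 of 88 cells and Tuba1a in 42. In the other 7 NSC libraries Tuba1a took 55.9% (P0) to 68.9% (E15.5) and Tuba1b 15.3% (E15.5) to 25.2% (P0).

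**Figure D2:**
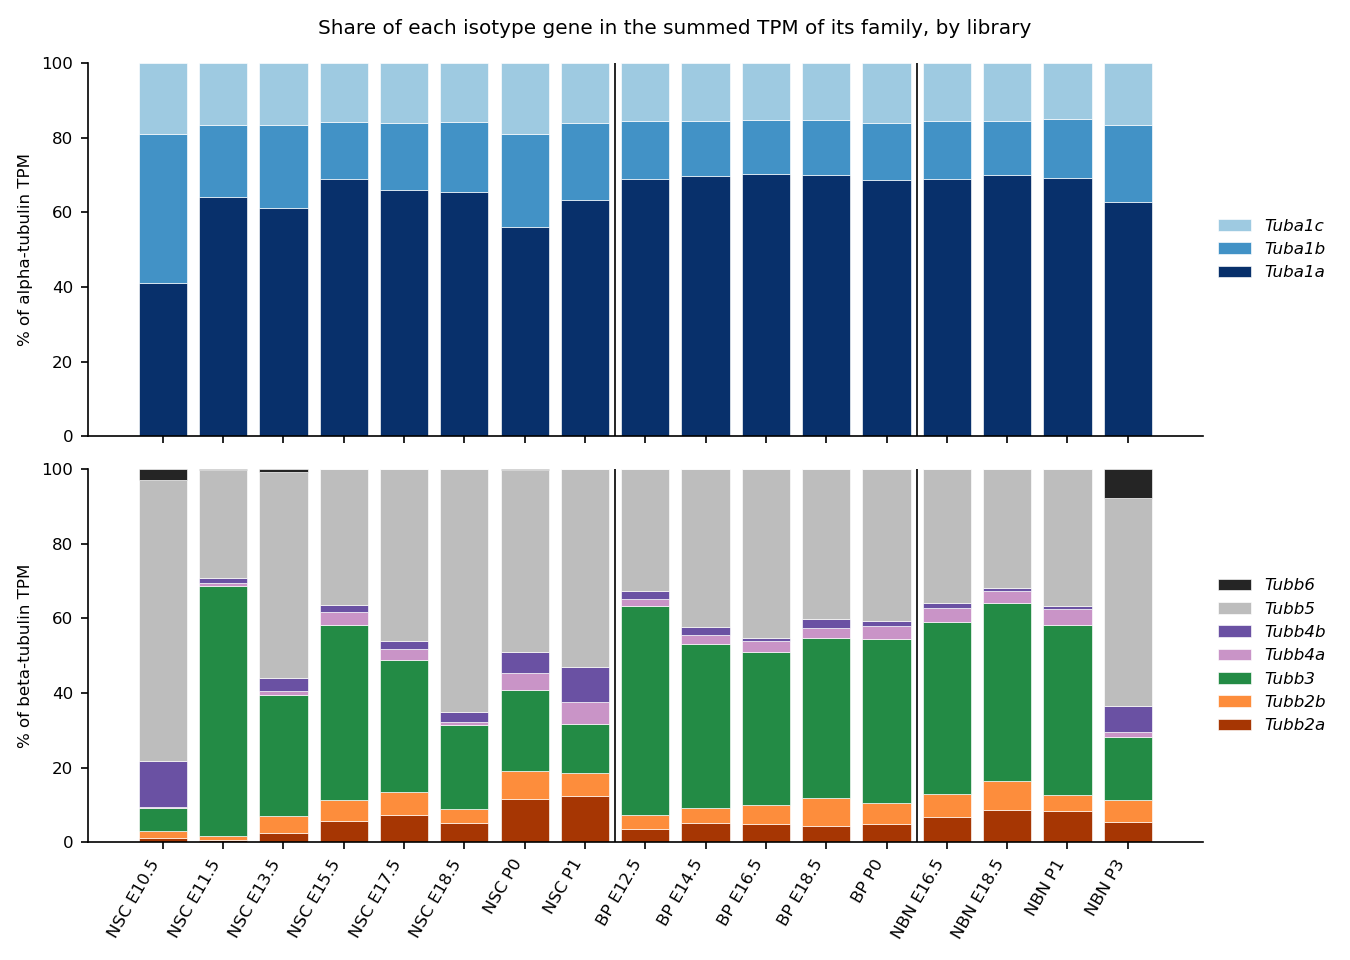
Percent of the summed alpha tubulin TPM (top) and beta tubulin TPM (bottom) taken by each isotype, 1 bar per library, NSC left, BP middle and NBN right. Tuba1b is widest at NSC E10.5 (40.0%), and Tubb5 leads Tubb3 at NSC E10.5, E13.5, E17.5, E18.5, P0 and P1, at BP E16.5 and at NBN P3. Among cells with 1000 or more genes, not drawn here, Tubb5 leads at NSC E11.5 too (47.1% against 46.5%), and Tubb3 leads at BP E16.5 (43.1% against 42.1%).

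Tubb3, the neuronal beta isotype, had library means of 221 TPM (E10.5), 1219.8 TPM (median) and 10705 TPM (E11.5) in NSC. The E11.5 mean was 4661 TPM in cells with 1000 or more genes. In BP the gene had 5282 TPM at E12.5, 4263 at E14.5, 2622 at E16.5, 2907 at E18.5 and 3505 at P0, and in NBN 4192 at E16.5, 4743 at E18.5, 3371 at P1 and 409.5 at P3. All BP and NBN libraries up to P1 were above the NSC median. Unlike Tuba1a, Tubb3 was absent from many cells: 60.2% of cells held 10 TPM at NSC E10.5, 95.3% at E15.5, 40.9% at E18.5, 19.1% at P1 and 7 of 40 cells at NBN P3, and the median cell was at 0 in NSC P1 and NBN P3.

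Tubb5, the broadly made beta isotype, varied far less. It had 1363 TPM (P1), 2579.9 TPM (median) and 4643 TPM (E11.5) in NSC, 2713 to 4091 TPM in BP, 2736 to 3272 TPM in NBN up to P1 and 1358 TPM at NBN P3, and 91.0% to 100% of cells held 10 TPM. The composition of beta tubulin therefore turned on Tubb3. Tubb3 took 6.06% of the beta sum at NSC E10.5 and Tubb5 75.2%. At E15.5 they took 47.0% and 36.3%, and at P1 13.0% and 52.9%. Over the 8 BP and NBN libraries other than P3, Tubb3 took 40.9% to 56.0% and Tubb5 31.8% to 45.1%, and at NBN P3 they took 16.8% and 55.9%. The population means were 30.6% ± 19.5 for Tubb3 in NSC, 45.6% ± 5.97 in BP and 39.0% ± 14.8 in NBN (SD, n = 8, 5 and 4), and 46.4% ± 1.23 in NBN without P3. In cells with 1000 or more genes the NSC mean was 28.0% ± 14.9, with libraries from 6.06% to 47.0%, and BP libraries ran from 43.1% to 56.0%, so the upper NSC libraries overlapped BP. The 4 NSC libraries with at most 15.2% neuron-profile cells had Tubb3 shares of 6.06% to 22.5%, and the other 4 had 32.5% to 67.0%, or 32.5% to 47.0% in cells with 1000 or more genes.

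Single cells pooled by population showed the same contrast, which varied between libraries. Among cells with 1000 or more genes and 100 TPM or more of beta tubulin, Tubb5 led in 66.5% of 526 NSC cells, 44.1% of 331 BP cells and 38.0% of 200 NBN cells, and Tubb3 in 25.7%, 53.8% and 55.5%. In BP, Tubb3 led in 57 of 71 cells at E12.5 and 39 of 75 at P0. Tubb5 led in more BP cells than Tubb3 at E14.5 (23 against 21), E16.5 (44 against 33) and E18.5 (29 against 28). The part of cells led by Tubb3 ran from 1.14% (E10.5) to 64.0% (E15.5) in NSC. In NBN it was 53.8% to 71.2% up to P1 and 9.38% at P3. Other beta isotypes led in 41 NSC cells, 7 BP cells and 13 NBN cells. At NSC E10.5 Tubb5 led in 87 of 88 cells, and at NBN P3 it led in 21 of 32, with Tubb4b leading in 4 and Tubb6 in 3. The median cell's Tubb3 share was 2.46% at NSC E10.5, 45.9% at E15.5, 0.199% at E18.5 and 0 at P1, and lay between 38.1% and 55.4% in every BP library.

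**Figure D3:**
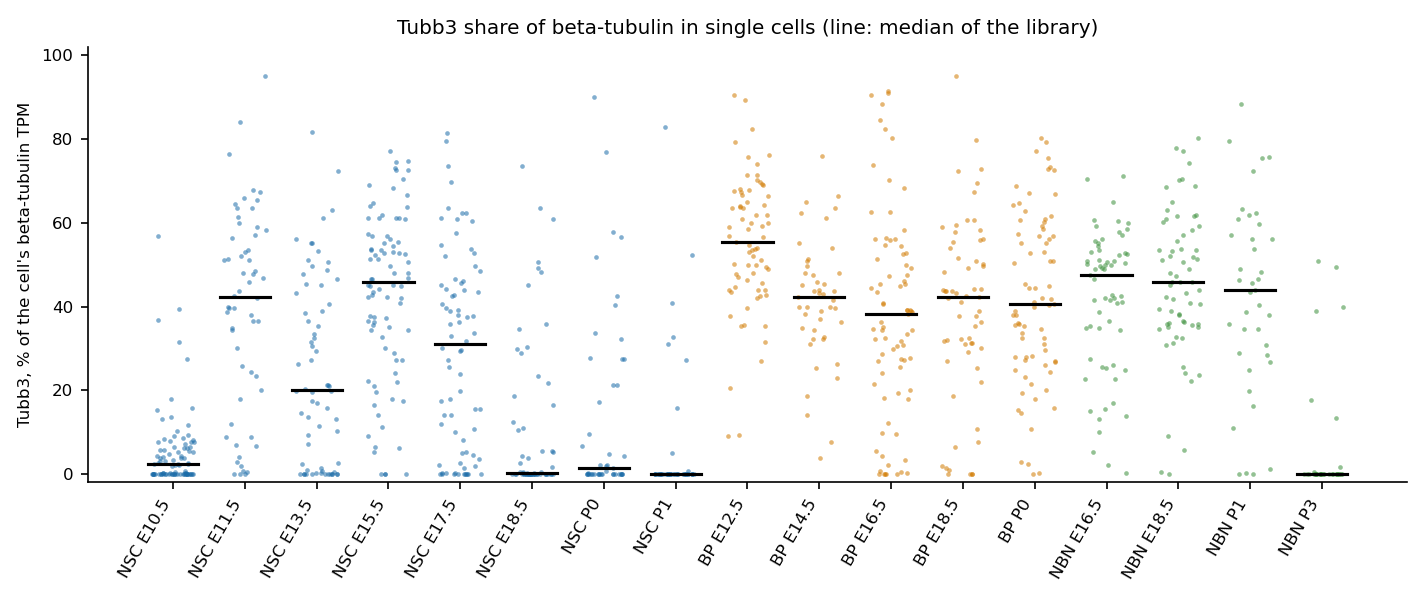
Tubb3 as a percent of the cell's own beta tubulin TPM, 1 point per cell with 1000 or more genes and 100 TPM or more of beta tubulin, by library; the black line is the library's median. NSC E18.5 and P1 hold many cells near 0 and a few high ones, while the BP medians lie between 38.1% and 55.4%.

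The other beta isotypes were minor but had patterns of their own. Tubb2a, a brain-rich isotype, had 37.2 TPM (E10.5), 283 TPM (median) and 475 TPM (E17.5) in NSC, 289 to 488 TPM in BP, and 623, 873, 630.2 and 130.2 TPM in NBN, in order of stage. Its near copy Tubb2b, needed for neuron migration, had 73.3 TPM (E10.5), 182 TPM (median) and 410.1 TPM (E17.5) in NSC, 335 to 513 TPM in BP, and 147 to 760.2 TPM in NBN. Both were lowest in the earliest NSC library. Tubb4a, an isotype of the nervous system, had 14.6 TPM (E10.5), 137 TPM (median) and 222 TPM (E15.5) in NSC, 172 to 292 TPM in BP and 345, 316, 327 and 30.8 TPM in NBN, and the median cell was under 10 TPM in 12 libraries.

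Tubb4b ran the other way. It had 448 TPM at NSC E10.5, where 89.8% of cells held 10 TPM, 184 TPM as the NSC median and 131 TPM at E15.5. BP libraries had 54.5 to 213 TPM, and NBN 109, 78.3, 49.4 and 169.9 TPM. Its share of the beta sum was 12.3% at NSC E10.5 and 0.665% to 2.45% in BP and NBN other than P3. In the other 16 libraries at most 50.0% of cells held 10 TPM (BP E12.5), and the cell median was under 10 TPM in 15. Tubb6, a low isotype in brain, had 109 TPM at NSC E10.5, 5.80 TPM as the NSC median, 0.550 to 1.55 TPM in BP, 0.707 to 3.36 TPM in NBN up to P1 and 185.4 TPM at NBN P3. The 17 P3 cells with microglial markers had 298 TPM of Tubb6 against 107 TPM in the remaining 22, and 5 cells on each side held 10 TPM. Cells with endothelial markers had 379 TPM against 162 TPM in the rest, and cells with meningeal markers 177 against 197 TPM. By profile, Tubb6 at P3 had 0.67 TPM in the 5 neuron-profile cells and 218 TPM in the 34 others. Tubb3 in those 5 neuron-profile cells averaged 2241 TPM, against 152 TPM in the 34 others and 4559 TPM in 159 neuron-profile cells of the other NBN libraries. The part of the other cell types in the P3 levels was not tested.

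The labels group cells into populations, and the first question is whether isotype levels differed between them at a given age. In a linear model of log2(mean TPM + 1) over all 17 libraries with age as a covariate (limma, Benjamini-Hochberg adjustment over 14072 genes), 0 of the 10 isotypes passed an adjusted p of 0.05 for BP against NSC, where 0.476% of all genes did, 0.0284% upward and 0.448% downward, and 4 had an unadjusted p under 0.05. An unadjusted p under 0.05 was reached by 1899 of all 14072 genes. Of the isotypes, 8 had higher estimates in BP. Tuba1a differed by 1.17 ± 0.41 on the log2 scale (SE, adjusted p = 0.225), Tubb3 by 1.57 ± 0.71 (adjusted p = 0.343), Tuba1c by 0.85 ± 0.33 (adjusted p = 0.271) and Tubb2b by 0.98 ± 0.40 (adjusted p = 0.293). Those 4 estimates were 2 or more times their errors and missed the threshold with age as a line. With stage as a factor, a fit in which only the 9 libraries at 4 shared stages bear on the contrast (3 residual degrees of freedom), Tuba1a (1.23, adjusted p = 0.0425) and Tubb3 (1.93, adjusted p = 0.0414) passed, where 0.135% of all genes passed upward. Tubb4b, at -0.53 ± 0.38, and Tubb6, at -1.94 ± 1.05, were the isotypes with lower estimates. The median over the isotypes was 0.80, and 0.13 over all genes tested.

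For NBN against NSC 0 of 10 isotypes passed in limma, where 1.66% of all genes did, 0.391% upward and 1.26% downward. An unadjusted p under 0.05 was reached by 0 isotypes and by 2215 of all 14072 genes. Tubb3 differed by 1.44 ± 0.84 (limma, adjusted p = 0.439), Tuba1a by 0.91 ± 0.48 (adjusted p = 0.379) and Tubb4b by -0.85 ± 0.45 (adjusted p = 0.379). With stage as a factor, where P3 has no counterpart, Tuba1a (1.71, adjusted p = 0.0143), Tuba1b (1.15, adjusted p = 0.029), Tuba1c (1.47, adjusted p = 0.0204) and Tubb3 (2.73, adjusted p = 0.0143) passed in limma, with 1.37% of all genes passing upward. Without NBN P3 alone 3 isotypes passed (1.74% of all genes upward), and without NBN P3 and NSC E15.5 Tuba1a (1.52), Tuba1b (0.87) and Tuba1c (1.21) passed (3.1% upward). Without NBN P3 and NSC E15.5, BP against NSC had 2 passing isotypes, Tuba1a (1.30) and Tuba1c (0.94), where 1.48% of all genes passed upward. The alpha isotypes share sequence, and whether their calls are separate was not tested. For NBN against BP 0 of 10 passed in limma, where 0.0142% of all genes did, all downward. Unadjusted p-values under 0.05 were reached by 0 isotypes and by 1283 of all 14072 genes. Here 9 isotypes had estimates between -0.42 and 0.05. Their 95% intervals were wide: that of Tubb3 ran from -1.996 to 1.75, which covers differences in either direction. The tenth, Tubb6, had 2.51 ± 1.33, with 185.4 TPM at NBN P3. No isotype separated BP or NBN from NSC, or NBN from BP, without overlap of library values, where 0.384% and 0.704% of genes lay above and below in BP against NSC, 0.419% and 1.53% in NBN against NSC, and 0.739% and 2.69% in NBN against BP. BP and NBN each share the NSC libraries as reference, so these comparisons are not independent.

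Pairs of libraries of 1 stage gave values without a test. At E18.5, Tuba1a had 6218 TPM in NSC, 11836 in BP and 21216 in NBN, and Tubb3 1083, 2907 and 4743 TPM, in rising order from NSC to NBN for both. Tubb5 had 3128, 2713 and 3165 TPM in the same libraries and Tubb4b 134.7, 166 and 78.3 TPM. At P1, Tubb3 was 10.0-fold higher in NBN (3371 TPM) than in NSC (337 TPM), while Tubb4b was at 49.4 against 246 TPM.

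The mean level of Tubb2a rose with age in NSC. Its library means were 37.2 TPM at E10.5, 104 at E11.5, 104.5 at E13.5, 379 at E15.5, 475 at E17.5, 249 at E18.5, then 446 and 317 TPM after birth (P0, P1), so the 3 earliest libraries were the lowest. The slope was 0.30 ± 0.064 log2 units per day (limma, adjusted p = 0.0297), and Tubb2a was the 1 isotype of 10 to pass, where 1.12% of all genes passed upward, 0.242% downward and 1.36% in either direction. An unadjusted p under 0.05 was reached by 3 isotypes and by 1806 of all 14072 genes. The call was lost without NSC E10.5 (slope 0.22), without E11.5 (0.32), without E13.5 (0.29) and without P0 (0.29), and held without NSC E15.5 (0.30). It was also lost when log2 values were averaged over cells (slope 0.17, adjusted p = 0.35), with quantile normalization (adjusted p = 0.0591) and without a filter (adjusted p = 0.0807). The median NSC cell had 4.44 TPM at E10.5, 197 TPM at E15.5 and 0.847 TPM at P1, so it was not higher at the last stage than at the first. Tubb6 had a slope of -0.46 ± 0.15 (adjusted p = 0.163) and Tubb5 -0.088 ± 0.036 (adjusted p = 0.303). Tubb6 was at 109 TPM at E10.5 and at most 27.0 TPM in the other NSC libraries. Tubb2a cells at 10 TPM or more made up 42.0% of NSC at E10.5 and 42.6% at P1.

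In BP 0 of 10 isotypes and 0% of all genes passed for age in limma, with slopes from -0.12 for Tubb4b to 0.067 for Tubb2b. An unadjusted p under 0.05 was reached by 0 isotypes and by 512 of all 14072 genes. In NBN 0 of 10 passed, where 0.448% of all genes did. Unadjusted p-values under 0.05 were reached in NBN by 8 isotypes and by 2769 of all 14072 genes. There Tuba1a had a slope of -0.40 ± 0.14 (adjusted p = 0.14), Tuba1b -0.31 ± 0.087 (adjusted p = 0.0906), Tuba1c -0.36 ± 0.11 (adjusted p = 0.106) and Tubb6 0.77 ± 0.33 (adjusted p = 0.206). These slopes rest on the P3 library, the last of 4 stages. Without it the slopes were -0.019 for Tuba1a, -0.018 for Tuba1b, -0.031 for Tuba1c and -0.34 for Tubb6. The median slope was -0.36 over the isotypes and -0.12 over all genes.

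The NSC libraries hold cells of both profiles at the same stage, which allows a comparison within libraries. No tubulin gene is in the lists that set the classes, but the classes were set from other genes of the same cells. Counted over E11.5, E13.5, E15.5, E17.5 and E18.5, 194 cells were neuron-profile and 158 radial glia-profile, and 49 of these 352 lay within 1 log2 unit of the boundary, so the classes are ranges of a score rather than types. The median neuron-profile cell held 2 of 20 G2/M genes at 10 TPM and the median radial glia-profile cell 6, and the median detected genes were 4979.5 and 4373.5. The basal progenitor list had medians of 2.18 and 1.22 log2 units. Markers of another cell type were held by 37 and 34 of the cells, and without them the Tuba1a and Tuba1c differences given next were 1.69 and 1.09.

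Tuba1a was higher in neuron-profile cells in all 5 libraries, at 12613 against 4586, 8154 against 3255, 13882 against 3444, 12104 against 4279 and 14134 against 4805 TPM from E11.5 to E18.5. The mean difference was 1.57 ± 0.098 log2 units (limma, adjusted p = 0.00468). Tuba1c rose with it by 1.08 ± 0.11 (adjusted p = 0.0406), and its differences ran from 0.78 at E13.5 to 1.29 at E18.5. These were 2 of 10 isotypes, where 0.0486% of 12344 genes passed, all of them higher. An unadjusted p under 0.05 was reached by 9 isotypes and by 1693 of all 12344 genes. The Tuba1a call was lost without E18.5 (1.57, adjusted p = 0.0575) and held without each other library, E15.5 included (1.46). The Tuba1c call was lost without any 1 library (adjusted p 0.109 to 0.203), with differences of 1.02 to 1.15.

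Tubb3 had a larger difference with a larger spread, at 7237 against 2709, 2441 against 416, 3394 against 199, 3177 against 772 and 3794 against 599 TPM, a mean of 2.55 ± 0.34 (adjusted p = 0.0673). Tubb4a was also higher in 5 of 5 libraries, at 3.54 ± 0.84 (adjusted p = 0.159), as were Tubb2b, at 1.29 ± 0.30 (adjusted p = 0.15), and Tubb5, at 0.59 ± 0.14 (adjusted p = 0.151). Tuba1b had the smallest alpha difference, 0.48 ± 0.13 (adjusted p = 0.199). Tubb4b was lower in 5 of 5 libraries, at -1.26 ± 0.32 (adjusted p = 0.182). As shares, neuron-profile cells gave Tubb3 35.8% to 53.1% of beta tubulin against 8.37% to 37.0%, and less to Tubb5 and Tuba1b in all 5 libraries. The Tubb3 and Tubb5 shares, though not the Tubb3 level, ran the other way among cells with at most 1 G2/M gene, given next.

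Division differed between these classes, so the comparison was repeated with both classes limited to cells with at most 1 G2/M gene. Only E11.5 (3 against 5 cells) and E18.5 (7 against 15 cells) then held 3 cells of each, which is too few libraries for a call. The Tuba1a difference stayed positive, at 0.55 and 1.89, while its share of alpha tubulin was 69.8% against 69.2% and 70.1% against 69.0%. Tubb3 took 49.7% against 59.3% and 32.7% against 37.0% of beta tubulin, and Tubb5 43.3% against 39.0% and 54.7% against 36.3%, neuron-profile cells first. The Tubb3 level stayed higher in neuron-profile cells, by 0.24 and 1.93 log2 units. At E11.5, 100% of the cells of both classes held Tubb3 at 10 TPM. The median cells there had 7342 TPM (radial glia-profile) and 9052.5 TPM (neuron-profile). At E18.5, 13.3% of the radial glia-profile cells held Tubb3 at 10 TPM, against 100% of the neuron-profile cells. Their median cells had 0.179 and 2557.5 TPM, so the 37.0% came from few cells. The Tubb4b difference turned positive, at 6.69 and 2.30, but rested on few cells. Tubb4b was at 10 TPM in 33.3% against 0% of cells at E11.5 and in 28.6% against 20% at E18.5. The median neuron-profile cell had 2.84 and 0.519 TPM. With both classes at most 3 G2/M genes, in 4 libraries, Tuba1a differed by 1.43 (limma, adjusted p = 0.26), Tuba1c by 1.32 (adjusted p = 0.353) and Tubb4b by 1.53, and 0 isotypes passed.

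**Figure D4:**
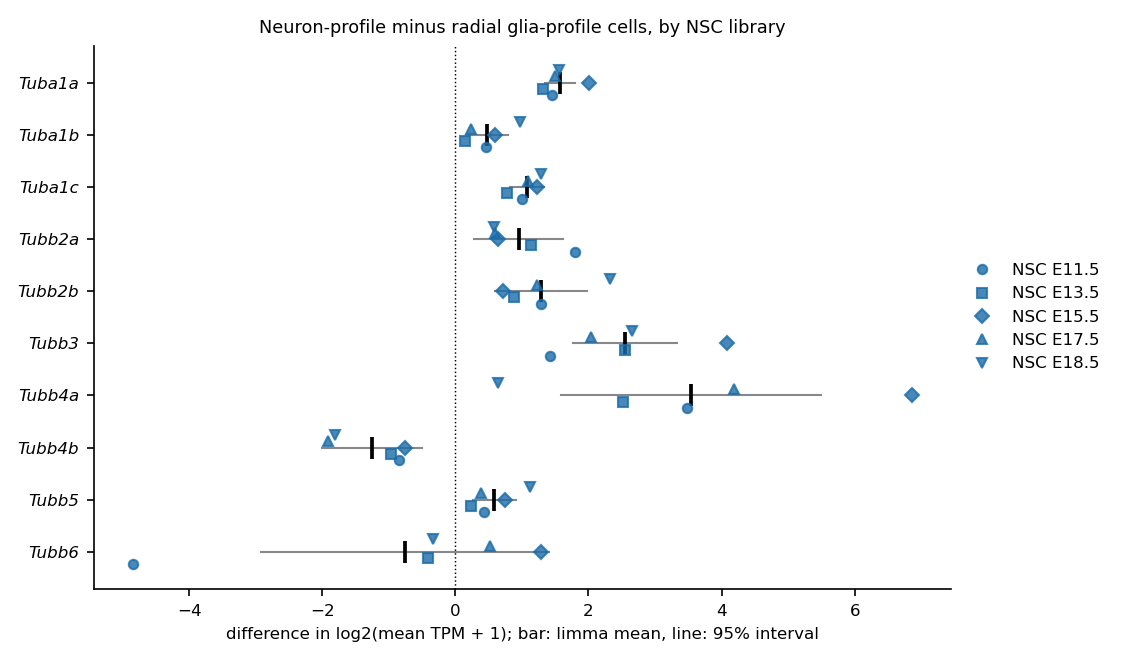
Difference in log2(mean TPM + 1) between neuron-profile and radial glia-profile cells for each isotype, 1 symbol per NSC library; the black bar is the limma mean and the grey line its 95% interval. Tuba1a and Tuba1c lie tightly around 1.57 and 1.08, Tubb4a spreads from 0.65 to 6.86, and Tubb4b lies below 0 in all 5 libraries.

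Dividing cells were set against non-dividing ones within the radial glia-profile class, with 5 or more of 20 G2/M genes at 10 TPM counted as dividing and at most 1 as non-dividing. In NSC, 3 libraries held 5 cells of each: E11.5 (23 and 5 cells), E18.5 (21 and 15) and P1 (8 and 20). Tubb4b had 404 against 0.0295 TPM at E11.5, 393 against 8.29 at E18.5 and 725 against 114 at P1, dividing cells first. It was at 10 TPM or more in 69.6%, 71.4% and 62.5% of dividing cells and in 0%, 20% and 20% of non-dividing cells, so a larger share of dividing cells held it in each library. The median dividing cell also had more detected genes, 4782 against 3739, 4099 against 2877 and 3795 against 3043. The mean difference was 5.56 ± 1.27 log2 units (limma, adjusted p = 0.587, unadjusted p = 0.0045). It was 4.03 without E11.5, and 2.57 without cells holding markers of another type, which left E18.5 and P1. The 5 non-dividing cells at E11.5 averaged 6774 TPM of Tubb3, against 1503 TPM in the dividing cells, and 100% of the 5 held 10 TPM. Their mean Tuba1a was 10348 TPM, against 3351 TPM. Without cells within 1 log2 unit of the profile boundary, E11.5 did not hold 5 cells of each class. How far profile as well as division bears on the E11.5 difference was not tested.

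With 3 libraries, 0 of 10 isotypes and 0% of 8372 genes passed in limma. An unadjusted p under 0.05 was reached by 2 isotypes, Tubb4b and Tubb5, and by 621 of all 8372 genes. Tubb5 had 4223 against 4456 TPM at E11.5, 4041 against 909 at E18.5 and 3336 against 873 at P1, a mean difference of 1.34 ± 0.46 (adjusted p = 0.602), and 4223 was below 4456 TPM at E11.5. Tuba1b was at 0.92 ± 0.38 (adjusted p = 0.675) and Tubb2a at -1.19 ± 0.62 (adjusted p = 0.741). Averaged as log2 values over cells rather than as TPM, Tubb4b differed by 4.94 and passed (adjusted p = 0.0417). The alpha composition and part of the beta composition differed in the same direction in all 3 libraries. Tuba1a took 49.1%, 55.3% and 51.7% of alpha tubulin in dividing cells and 69.2%, 69.0% and 67.6% in non-dividing cells. The shares of Tuba1b, Tuba1c, Tubb4b and Tubb5 were higher in dividing cells, and that of Tubb2a was lower. The Tubb3 share changed direction. It was 23.7% against 59.3% at E11.5, 7.37% against 37.0% at E18.5 and 14.9% against 0.0131% at P1, dividing cells first. The shares of Tubb2b, Tubb4a and Tubb6 also changed direction between libraries.

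**Figure D5:**
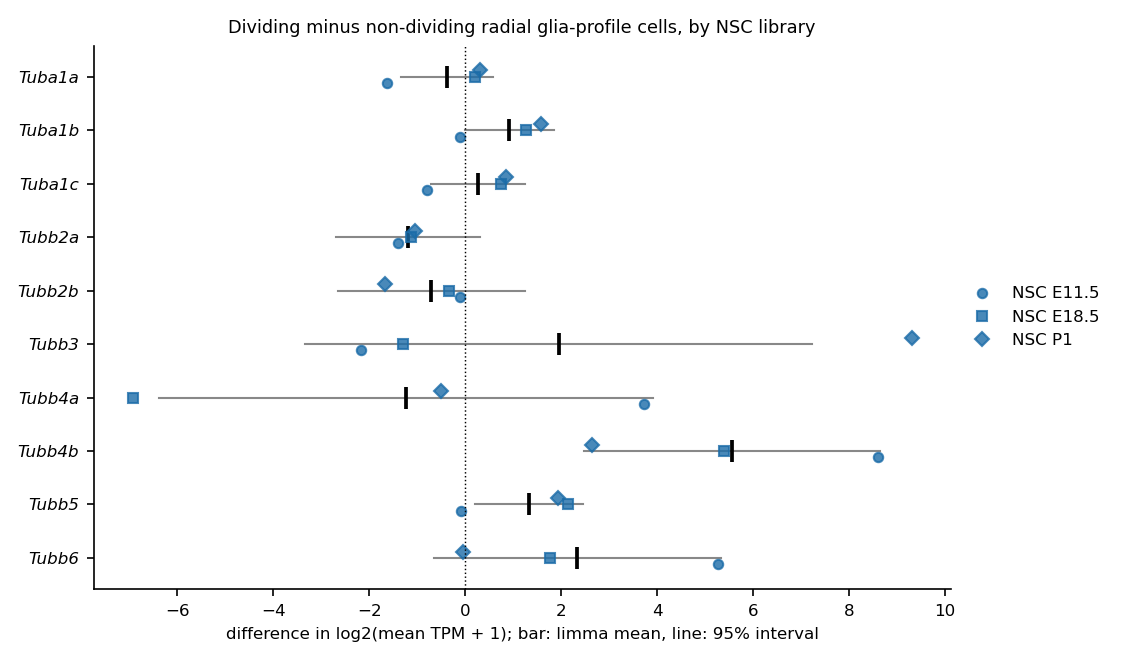
Difference in log2(mean TPM + 1) between dividing and non-dividing radial glia-profile cells for each isotype, 1 symbol per NSC library; the black bar is the limma mean and the grey line its 95% interval. Tubb4b lies between 2.65 and 8.62, while Tuba1a lies on both sides of 0.

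Dividing and non-dividing neuron-profile cells of BP gave the same kind of values, without a test because 3 of the 5 libraries held 3 or 4 dividing cells. Tubb4b was higher in dividing cells in 4 of 5 libraries, by 1.06, 2.15, 3.85 and 2.44 log2 units at E12.5, E14.5, E16.5 and P0, and lower by -1.87 at E18.5. In that library 1 non-dividing cell of 7352 TPM held 71.5% of all Tubb4b, and 66.7% of dividing against 19.4% of non-dividing cells held 10 TPM. Tuba1a and Tubb3 were lower in dividing cells in 5 of 5, Tuba1a by -0.032 (E16.5) to -1.16 (E18.5) and Tubb3 by -0.63 to -2.18. At E16.5 Tuba1a had 12809 TPM in 4 dividing cells against 13098 TPM, so the 2 classes were nearly equal there. The shares of Tubb5 and Tuba1b were higher in dividing cells in 5 of 5.

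The sequence upstream of the start sites is shown for Tubb4b and Tubb2a, described above for division and for age. Tubb4b did not pass for division in the main fit, and the Tubb2a age call was lost under several alternatives. Whether upstream sequence bears on the level of either gene was not tested. RefSeq sequence on GRCm38.p6 was matched for 8 of the 10 isotypes, and the 250 bases before the start are shown for these 2. Capitals mark matches on either strand to CCAAT, known as the CCAAT box, to the GC box letters GGGCGG and to CAGCTG. Tubb4b is at chr2:25224703-25224952, minus strand, and Tubb2a at chr13:34078009-34078258, minus strand.
Tubb4b: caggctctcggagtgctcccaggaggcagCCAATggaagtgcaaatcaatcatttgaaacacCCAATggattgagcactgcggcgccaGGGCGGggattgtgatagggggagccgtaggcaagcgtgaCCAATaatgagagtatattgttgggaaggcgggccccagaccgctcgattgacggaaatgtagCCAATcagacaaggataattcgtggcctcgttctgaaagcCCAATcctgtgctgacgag
Tubb2a: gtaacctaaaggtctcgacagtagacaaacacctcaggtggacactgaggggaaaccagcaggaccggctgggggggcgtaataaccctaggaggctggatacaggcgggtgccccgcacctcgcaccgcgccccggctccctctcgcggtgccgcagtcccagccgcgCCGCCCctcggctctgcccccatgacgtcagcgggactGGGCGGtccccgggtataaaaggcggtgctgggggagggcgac
Tubb4b held CCAAT 5 times, as 0.213% of 32851 mouse promoter windows of this length did, and 33.8% held it at least once. Tubb5 held it 2 times (10.1% of windows hold as many), Tuba1a, Tuba1c and Tubb3 once, and Tuba1b, Tubb2a and Tubb4a not at all. GGGCGG was in 32.7% of windows and was held by Tubb4b once and by Tubb2a 2 times, and CAGCTG was in 13.0% and only in that of Tuba1b among the 8. A match describes letters in this window only.

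Across the 1071 cells with 1000 or more genes, Tuba1a and Tuba1c had a Spearman rho of 0.966 (Pearson r of 0.938 on the log2 scale), Tuba1a and Tuba1b 0.788 (0.846) and Tubb2a and Tubb2b 0.825 (0.837). These 3 pairs share sequence as well as cells and depth. Tuba1a and Tubb3, which do not, had a rho of 0.750, with a median of 0.538 within libraries and a range from 0.215 to 0.805. Tubb4b had a rho of -0.034 with Tuba1a and -0.017 with Tubb3 over all these cells. Within libraries its rho ran from -0.196 to 0.456 with Tuba1a (median 0.084). With Tubb3 it ran from -0.301 to 0.439 (median 0.089). Cells of a library share its capture, so these are descriptions.

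Over the 17 library values the genes most like Tuba1a were Tuba1c (Pearson r = 0.968), the collapsin response mediator gene Crmp1 (0.965) and Dnajc6 (0.948). Tuba1c was closest to Tuba1a, Crmp1 (0.962) and the kinesin gene Kif3c (0.954), and Tuba1b to Tuba1c (0.927), Kif3c (0.906) and Acot7 (0.905). Tubb2a was closest to Gpm6a (0.949), a neuronal membrane glycoprotein, Mapt (0.923), which encodes tau, and Acat1 (0.917), and Tubb2b to Syne1 (0.948), Gm21833 (0.943) and Gpr85 (0.932). Tubb3 followed Ermap (0.918), Tagln3 (0.896) and Tbr1 (0.876), a transcription factor of deep-layer neurons, and Tubb4a Crtc1 (0.915), Rab3c (0.914) and Kidins220 (0.896). Tubb4b followed its pseudogene Tubb4b-ps1 (0.991), Rfwd3 (0.838) and Plagl1 (0.826), Tubb5 Sap30bp (0.888), Gdf11 (0.862) and Dync1li1 (0.847), and Tubb6 Syngr2 (0.953), Nid2 (0.903) and Wfdc2 (0.902). The highest of many correlations over 17 points are high by selection, and libraries share populations and ages.

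Genes that fold, modify, nucleate, bind or sever tubulin were counted in 6 lists of 109 genes, 98 of which were tested in the library models. For BP against NSC 0 were higher and 1 lower, the severing enzyme gene Fignl1 at -3.36 ± 0.63 log2 units (limma, adjusted p = 0.0175), where 0.448% of all genes passed downward. For NBN against NSC 0 were higher and 2 lower, Fignl1 at -3.32 (adjusted p = 0.0338) and Tpx2, a spindle nucleation factor, at -3.31 ± 0.64 (adjusted p = 0.0149), where 1.26% of all genes passed downward. The Fignl1 calls were lost with stage as a factor (limma, adjusted p = 0.213 and 0.235). For NBN against BP and for age in BP and in NBN 0 passed in either direction. With age in NSC 2 rose, Dclk1, a doublecortin-like microtubule binder, at 0.29 ± 0.052 per day (adjusted p = 0.0102), and Sirt2, a tubulin deacetylase, at 0.29 per day (adjusted p = 0.0364), where 1.12% of all genes passed upward, so 2 of 98 is near the background. In neuron-profile against radial glia-profile cells 1 of 94 tested rose, Stmn1, a microtubule destabiliser, at 1.03 ± 0.097 (adjusted p = 0.0241), where 0.0486% of all genes did, and in dividing against non-dividing cells 0 of 75 passed in either direction.

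By list, the 24 microtubule-associated and plus-end genes had a median of 0.72 for BP against NSC and of 0.73 in neuron-profile cells, against 0.13 and -0.034 over all genes tested. The 10 destabilising and severing genes had a median of 1.42 in neuron-profile cells. The 20 nucleation genes had a median of -0.55 for NBN against NSC and of 2.07 in dividing cells, where all genes had -0.10 and 0.33, and Tpx2 is also among the genes that define division. The folding genes, 20 of 21 tested, had medians of 0.16 and 0.017 for BP and NBN against NSC. Of the 10 other tubulin genes 5 were tested, with medians of 0.69 and -0.11.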

How the data were processed

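Single-cell cDNA was made on the Fluidigm C1 system with the SMARTer kit and sequenced with Nextera XT libraries, per the labels' protocols. The deposited values are TPM per gene and cell, made by the authors with kallisto 0.43.0 on the builds GRCm38.p2 and mm10, per the submitters' processing notes. Deposited columns of 7 near-empty cells hold whole numbers only, were named a score and entered as TPM. Read depth cannot be recovered from TPM and is unknown, and precision is given by cells per library (39 to 89) and the spread between libraries.

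A library's value was log2(mean TPM over its cells + 1), a scale that understates the change of low genes. The 14072 genes whose library mean reached 1 TPM in 4 libraries were tested, two-sided, with limma 3.58.1 (trended eBayes, R 4.3.3) and Benjamini-Hochberg adjustment at a threshold of 0.05. Population contrasts had age as a covariate, and age trends had a slope per population. Postnatal age was 18.5 plus the labelled days. Within-library differences between cell classes were tested with the library as the unit, in libraries with 5 cells of each class, leaving out cells under 1000 genes. The neuron-profile comparison was designed for cells with at most 1 G2/M gene, but 1 library alone held enough of these, so the limit was dropped after class sizes were seen. Labels name no animals or batches, so p-values measure the spread between libraries, which may be technical, and a capture cannot be told apart from its stage. The isotypes and lists were chosen with earlier results of these data known. From the pathway lists, genes that passed are named. Likeness names the 3 genes of highest Pearson correlation. Fits were tested on simulated data. Python 3.11.15, NumPy 2.4.6, pandas 2.3.3, SciPy 1.17.1 and matplotlib 3.10.9 made the shares and plots. Sequences come from GRCm38 with GENCODE M21 and from RefSeq (GRCm38.p6); the sequences of Tubb6 and of the alpha coding ends are not reported here. Alternatives covered pseudocounts of 0.1 and 10, filters, quantile normalization, other class limits, stage as a factor and leaving out each library.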

Additional observations from a re-analysis of the deposited data

Results flagged for a closer look

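Of 60 groups of 4 to 8 library values checked (log2 levels and family shares), 11 held a library far from its group, where chance gives about 1 in 20 groups. NBN P3 accounted for 6 of these. It had the lowest Tubb3 level (8.68 log2(mean TPM + 1), nearest 11.72 at P1), the lowest Tubb4a level (4.99, nearest 8.31 at E18.5), the lowest Tuba1a share (62.7% of alpha tubulin, nearest 68.9%) and the lowest Tubb3 share (16.8% of beta tubulin, nearest 45.3%). It also had the highest Tubb4b share (6.99%, nearest 1.20%) and the highest Tubb6 share (7.63%, nearest 0.0369%). This is the library in which 36 of 39 cells held markers of another cell type, whose part in these values was not tested.

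NSC E10.5 stood apart in 3 groups, with a Tuba1a share of 40.9% (nearest 55.9% at P0), a Tuba1b share of 40.0% (nearest 25.2% at P0) and a Tubb6 share of 2.99% (nearest 0.647% at E13.5). In this library 94.3% of cells counted as dividing and 1.14% were neuron-profile. Tubb3 had its highest BP share at E12.5 (56.0%, nearest 44.1% at E14.5). Tubb6 had its lowest BP level at E16.5, 0.63 log2(mean TPM + 1) (nearest 1.15), in the library that holds 10 of the 23 near-empty cells.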

How the results depend on the processing

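No paired analysis was possible because the replicate numbers only count cells within each library, so they match no cells between libraries. This applies to comparisons between libraries, while cell classes were compared by differences within each library. Libraries of 1 stage were compared with stage as a factor. Over all comparisons, 82 of 1871 isotype values changed sign under an alternative, none of them with a call on either side, and 46 of these were in NBN against BP. The counts of passing isotypes moved as follows, and the cause was not tested. With stage as a factor, 2 passed for BP against NSC (Tuba1a, Tubb3) and 4 for NBN against NSC (these, Tuba1b and Tuba1c). Without NSC E15.5 and NBN P3 (chosen after seeing the data), 2 and 3 passed, and 2 for age in NSC. Averaging log2 values over cells gave 3 for age in NSC (Tubb4b, Tubb5 and Tubb6, all falling, and not Tubb2a), 6 for age in NBN, 1 in dividing cells and 6 in neuron-profile cells. Without a filter on low genes, which tests more genes, 0 passed for age in NSC and 0 in neuron-profile cells, and quantile normalization gave 0 for age in NSC. Without cells holding markers of another type, 2 passed for age in NSC and 4 for age in NBN. Neuron-profile cells limited to at most 1 or at most 3 G2/M genes (added later) gave 0 and 0. Leaving out 1 library gave 0 to 0 passing isotypes for BP against NSC, 0 to 3 for NBN against NSC (3 without NBN P3), 0 to 0 for NBN against BP, 0 to 2 for age in NSC, 0 to 0 for age in BP, 0 to 3 for age in NBN (2 without NBN E16.5, 3 without NBN P1), 0 to 0 in dividing cells and 0 to 1 in neuron-profile cells. Signs turned for Tubb4a in NBN against BP (0.18 from E16.5 on, 0.099 with log2 averages, 0.76 with stage as a factor, 0.31 without NSC E15.5 and NBN P3, and -0.93 without NBN E16.5 to 0.32 without NBN P3 when 1 library was left out), for the Tubb2b slope in BP (-0.061 with log2 averages), for the Tubb6 slope in NBN (-0.34 without NBN P3, with or without NSC E15.5, up to 1.49 without NBN E16.5, and -0.37 without other cell types) and for Tubb4b in neuron-profile cells (1.53 with at most 3 G2/M genes). Means of per-cell shares were 64.2% for Tuba1a and 19.9% for Tuba1b in NBN and 15.47% for Tuba1b in BP, and Tubb2b took 8.01% in NBN without other cell types. Medians over cells in place of means gave log2 levels of 4.20, 7.31 and 6.62 for Tubb2a in NSC, BP and NBN, 5.80, 7.98 and 6.70 for Tubb2b, 0.44, 3.32 and 4.79 for Tubb4a, and 1.61, 1.33 and 0.27 for Tubb4b. They gave 6.76 and 8.94 for Tubb3 in NSC and NBN and 0.48 for Tubb6 in NSC, and Tubb3 had 9.01 in NBN without other cell types. Quantile normalization moved the median of all genes from -0.10 to 0.033 for NBN against NSC, from -0.23 to -0.021 for NBN against BP and from -0.12 to -0.0070 for age in NBN. Of the named pathway genes, Dclk1 passed in 24 of 26 alternatives, Sirt2 in 17 of 26, Tpx2 in 25 of 28, Fignl1 in 19 of 28 (BP) and 16 of 28 (NBN), and Stmn1 in 7 of 14. With unknown read depth, low isotypes such as Tubb6 and Tubb4a in single cells could not be separated from missed capture.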
